A study of Homo sapiens with 24 samples.

Results

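The genes described here are 33 genes of homologous recombination, the Fanconi anaemia pathway and the DNA damage checkpoint, taken by symbol from a fixed list out of the 25277 gene symbols of the expression table. All 33 were in the table, none on more than 1 line, and 32 could be tested. Homologous recombination mends broken DNA by copying the sister chromatid: resection enzymes trim the break, BRCA1, PALB2 and BRCA2 prepare the exposed strand, and XRCC2, XRCC3, RAD51C and RAD54L act in its pairing with the intact copy. Fanconi proteins mark and open crosslinked DNA at stalled replication forks, through a core complex that ubiquitinates FANCI and FANCD2. ATM and ATR signal the damage to CHEK2 and CHEK1, and defects in several of these genes are known from aggressive prostate cancer.

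The cells were 22Rv1DR and DU145DR, sublines that the labels call aggressive and derive from the human prostate cancer lines 22Rv1 and DU145. Each was treated with siRNA construct 1 against POM121, siRNA construct 2 against POM121, or a control of which the labels say no more, and POM121 codes for a scaffold protein of the nuclear pore. The labels write knockout, although the reagent was siRNA, which lowers a transcript without cutting its gene. Each of the 6 groups held 2 libraries, and each of the 12 libraries was read on 2 lanes, which were averaged, so n = 2 throughout. Whether a group's 2 libraries are separate cultures is not stated, so p-values measure the spread between these libraries, which may be technical.

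Values are FPKM, sequenced fragments scaled to transcript length and library total, so levels can be set beside each other across genes. The smallest value above 0 was 1 FPKM, called the floor below, and read depth cannot be recovered from such values. A 0 may stand for a low level or for an estimate that failed: EME1 read 3.16 log2 FPKM on 1 lane of library 4A and 0 on its other lane. A gene at 0 is therefore only said to be listed at 0. Of the 33 genes, 30 were above this floor on both lanes in all 12 libraries, BRCA2 and FANCB were in 10, and EME1 in none. POM121 stood at 7.68 and 7.81 FPKM with construct 1 and 6.73 and 7.43 FPKM with construct 2 in 22Rv1DR, against 38.5 and 37.8 FPKM in its control. DU145DR held 13.4 and 13.5 FPKM with construct 1 and 12.5 and 13.2 FPKM with construct 2, against 21.6 and 21.3 FPKM in control. POM121C, a near-identical copy that may share reads with POM121, had 4.04 to 4.65 FPKM with siPOM121 in 22Rv1DR, against 26.3 and 27.0 FPKM in control, and 9.77 to 10.6 FPKM in DU145DR, against 16.7 and 17.1 FPKM. Library 4C of the construct 2 group of 22Rv1DR stood apart from its partner 5C, with 18.5% against 12.1% of summed FPKM in ribosomal protein genes (14.9% to 16.9% in the other 4 22Rv1DR libraries). Control library 4A of 22Rv1DR was run on lanes 1 and 2 with the DU145DR libraries, and the other 5 on lanes 3 and 4. Markers of 22Rv1 such as HOXB13 (34.0 to 38.7 FPKM) were above the floor in all 6 22Rv1DR libraries and markers of DU145 such as VIM (444 to 569 FPKM) in all 6 DU145DR libraries, HOXB13 and VIM each being listed at 0 in the other line, and 7 of 9 markers of blood, endothelial and stromal cells were listed at 0 in all 12 libraries. The other 2 were LUM, at 42.6 to 55.3 FPKM in 22Rv1DR, and CD68, at 1.61 to 2.53 FPKM in 22Rv1DR and 12.5 to 15.7 FPKM in DU145DR, and the epithelial marker CDH1 was listed at 0 in all 6 DU145DR libraries. Some markers moved with siPOM121 (log2 difference from control ± SE, limma adjusted p under 0.05). In 22Rv1DR, 3 of 6 markers of 22Rv1 fell, among them KLK3 (-0.55 ± 0.12) and KLK2 (-0.43 ± 0.09), while EGFR (0.17 ± 0.05), KRT8 (0.24 ± 0.06) and CD68 (0.40 ± 0.08) rose. In DU145DR, 2 of 6 markers of DU145 fell, CD44 (-0.29 ± 0.04) and VIM (-0.24 ± 0.03), CD68 fell (-0.29 ± 0.08) and KRT8 rose (0.25 ± 0.06). Their part in the results below was not tested.

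With siPOM121, 22 of the 32 tested genes fell in 22Rv1DR and none rose, where over all 13622 tested symbols 20.4% fell and 15.2% rose (limma across all 12 libraries, Benjamini-Hochberg adjusted p under 0.05). The median log2 fold change over the 32 genes was -0.36, beside -0.02 over all symbols, and 31 of the 32 values lay below 0. In 23 of the 32, every siPOM121 library of 22Rv1DR lay below both control libraries, an order that 27.3% of all symbols showed. CLSPN, RAD54L, BRCA1, BLM and FANCD2 fell furthest, by 0.70 to 0.85 on the log2 scale. Within lanes 3 and 4, that is without control library 4A, only control library 5A is left, so calls are not counted there. In the 23 genes above, every siPOM121 library also lay below 5A taken alone. In bulk RNA, fewer cells with a transcript and less of it per cell cannot be told apart.

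**Figure D1:**
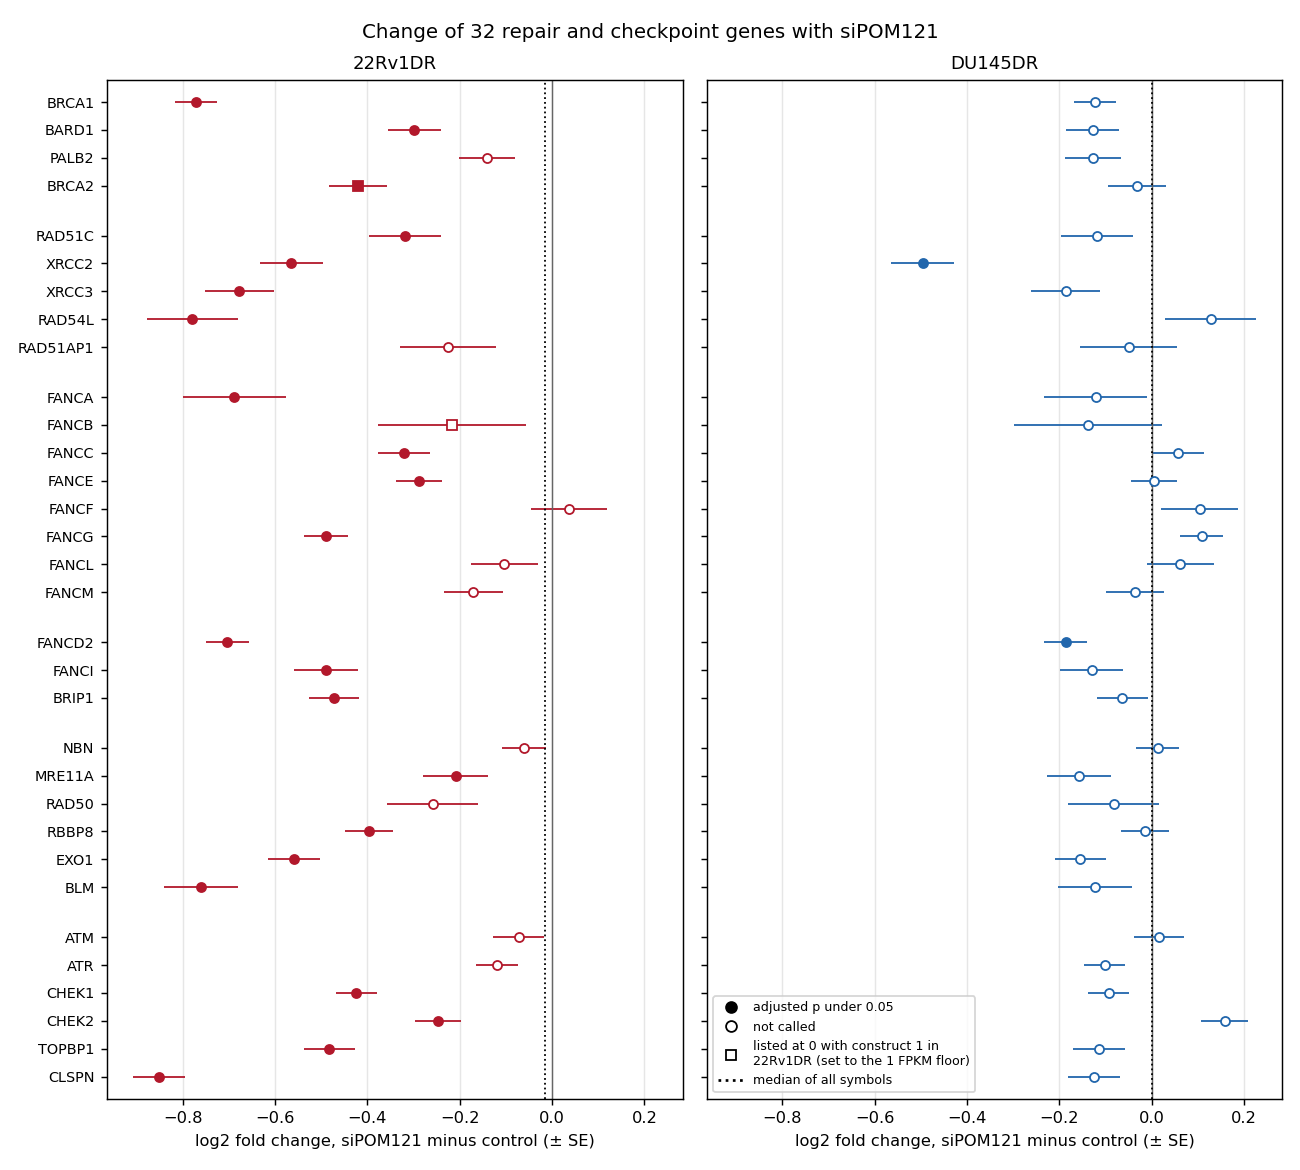
Log2 fold change with siPOM121 (both constructs minus control, ± SE) for the 32 tested genes, grouped by role, in 22Rv1DR on the left and DU145DR on the right. Filled points have an adjusted p under 0.05, 22 in 22Rv1DR and 2 in DU145DR, and the dotted line is the median of all symbols; squares are genes listed at 0 with construct 1, whose values were set to the floor.

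Among the genes of the BRCA group, BRCA1, the ubiquitin ligase subunit that steers breaks towards recombination, had 7.51 and 7.39 FPKM with construct 1 and 8.73 and 9.41 FPKM with construct 2, against 14.0 and 14.1 FPKM in control 22Rv1DR cells. The groups did not overlap, and construct 1 was the lower. The fall was 0.77 ± 0.05 on the log2 scale (SE, adjusted p = 1.41e-05). BARD1, the obligate partner of BRCA1 in that ligase, fell by 0.30 ± 0.06 (adjusted p = 0.00388). BRCA2, a mediator of strand pairing, was listed at 0 in both construct 1 libraries and at 1.33 and 1.21 FPKM with construct 2, against 1.54 and 1.48 FPKM in control cells. BRCA2 passed the test with its values of 0 set to the floor, and no fold is given for it. PALB2, which bridges BRCA1 and BRCA2, had 2.86 to 3.16 FPKM in the 4 siPOM121 libraries, against 3.49 and 3.22 FPKM in control, and did not pass (log2 difference -0.14 ± 0.06, adjusted p = 0.0983).

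Of the 5 strand exchange genes, 4 fell. RAD54L, the motor that drives strand invasion, had 4.24 and 3.92 FPKM with construct 1 and 10.1 and 8.61 FPKM with construct 2, against 10.2 and 10.9 FPKM in control 22Rv1DR cells. Both construct 1 libraries were far below the rest, while the construct 2 libraries lay just below control. XRCC3, which acts in strand pairing, had 7.16 and 7.62 FPKM with construct 1 and 8.10 and 9.09 FPKM with construct 2, against 11.9 and 13.7 FPKM in control, a fall of 0.68 ± 0.07 (adjusted p = 0.000248). XRCC2, of the same family, fell by 0.56 ± 0.07 (adjusted p = 0.000371), and RAD51C, also of that family, by 0.32 ± 0.08 (adjusted p = 0.0121). RAD51C did not keep its call without library 4A, without library 5A, on the higher-numbered lanes alone or with the line fitted alone. RAD51AP1, a strand exchange factor, differed between the constructs and did not pass over both together (-0.23 ± 0.10, adjusted p = 0.124).

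The 8 Fanconi core complex genes split evenly, 4 falling and 4 not passing. FANCA had 6.48 and 6.98 FPKM with construct 1 and 12.5 and 8.96 FPKM with construct 2, against 14.1 and 13.1 FPKM in control 22Rv1DR cells. All 4 siPOM121 libraries were below control, with the construct 2 libraries apart from each other. FANCA fell by 0.69 ± 0.11 (adjusted p = 0.00167), and with the line fitted alone its adjusted p was 0.0765 (1.74e-05 to 0.0765 over the alternatives). FANCG fell by 0.49 ± 0.05 (adjusted p = 0.000127), FANCC by 0.32 ± 0.06 (adjusted p = 0.00241) and FANCE by 0.29 ± 0.05 (adjusted p = 0.00222). FANCF, the adaptor of the core complex, stood at 16.2 and 15.8 FPKM with construct 1 and 16.7 and 17.2 FPKM with construct 2, against 16.9 and 15.3 FPKM in control, and was the only one of the 32 with a value above 0 (0.04 ± 0.08, adjusted p = 0.81). FANCL, the ubiquitin ligase of the complex, and FANCM, its DNA translocase, had values of -0.10 ± 0.07 and -0.17 ± 0.06 and did not pass.

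All 3 genes of the step after the core complex fell. FANCD2, the ubiquitinated clamp, had 6.89 and 6.90 FPKM with construct 1 and 8.27 and 8.49 FPKM with construct 2, against 12.3 and 12.4 FPKM in control 22Rv1DR cells. The libraries of each group lay close together and the 3 groups were fully separate. Its fall was 0.70 ± 0.05 (adjusted p = 2.06e-05), that of its partner FANCI 0.49 ± 0.07 (adjusted p = 0.000843) and that of BRIP1, the helicase bound by BRCA1, 0.47 ± 0.05 (adjusted p = 0.000301).

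Of the 7 resection and junction genes, 4 fell. BLM, the helicase that resects ends and dissolves junctions, had 2.64 and 2.52 FPKM with construct 1 and 3.45 and 3.15 FPKM with construct 2, against 5.12 and 4.76 FPKM in control 22Rv1DR cells. Again the groups did not overlap, with a fall of 0.76 ± 0.08 (adjusted p = 0.00019). EXO1, the long-range resection nuclease, fell by 0.56 ± 0.06 (adjusted p = 0.000152) and RBBP8, which codes for CtIP and starts resection, by 0.40 ± 0.05 (adjusted p = 0.000579). The MRE11, RAD50 and NBN complex, which senses the break, moved less. MRE11A had 1.56 to 1.98 FPKM in the siPOM121 libraries, against 2.07 and 1.89 FPKM in control, so that the groups overlapped, and its call (-0.21 ± 0.07, adjusted p = 0.0439) was lost in 21 of 25 alternative settings. RAD50 (-0.26 ± 0.10) and NBN (-0.06 ± 0.05) did not pass. EME1, a subunit of a junction nuclease, was listed at 0 in every library except on lane 1 of control library 4A and was not tested.

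Of the 6 checkpoint genes, 4 fell, and ATR and ATM, the kinases that start the signal, did not pass. CLSPN, which codes for claspin, the adaptor through which ATR activates CHEK1, had 2.42 and 2.58 FPKM with construct 1 and 3.73 and 3.47 FPKM with construct 2, against 5.62 and 5.20 FPKM in control 22Rv1DR cells. No library overlapped between the 3 groups, and the fall of 0.85 ± 0.06 (adjusted p = 2.06e-05) was the largest of the 32. TOPBP1, the activator of ATR, fell by 0.48 ± 0.06 (adjusted p = 0.000308), CHEK1 by 0.42 ± 0.04 (adjusted p = 0.00019) and CHEK2 by 0.25 ± 0.05 (adjusted p = 0.00541). ATR had 4.00 and 4.02 FPKM with construct 1 and 4.05 and 4.07 FPKM with construct 2, against 4.49 and 4.27 FPKM in control, and ATM 3.78 and 4.01 FPKM and 3.34 and 3.52 FPKM, against 3.84 and 3.85 FPKM. Their log2 differences were -0.12 ± 0.04 for ATR (adjusted p = 0.0646) and -0.07 ± 0.05 for ATM (adjusted p = 0.351).

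**Figure D2:**
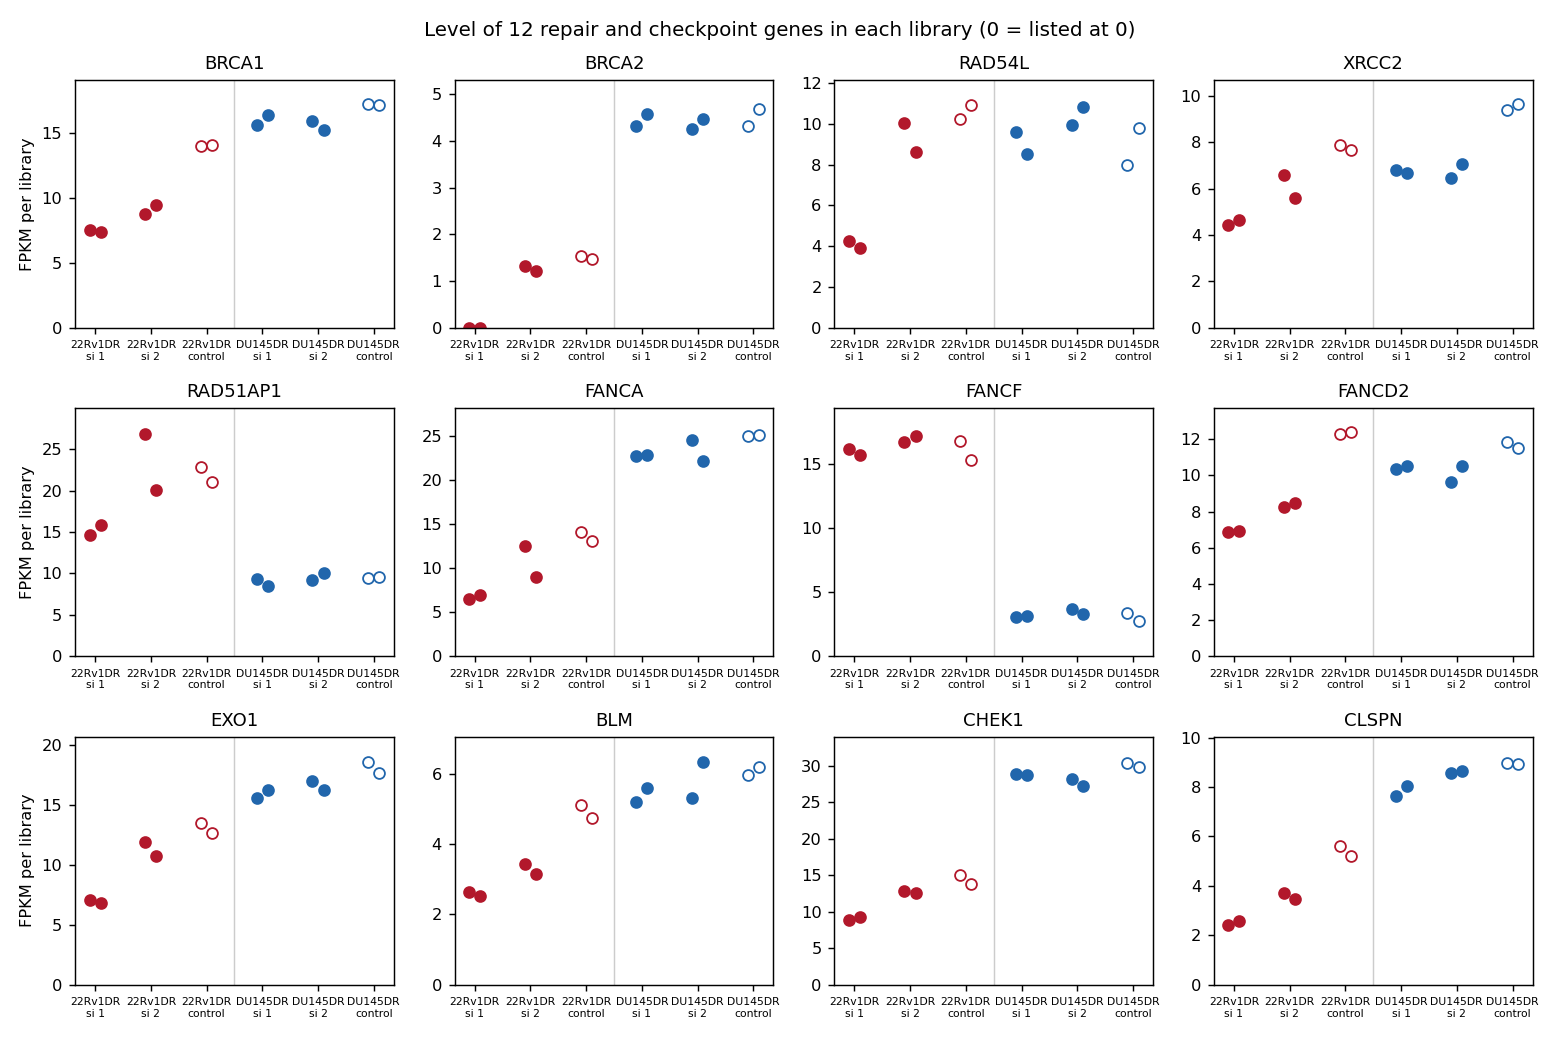
FPKM of 12 of the genes in each of the 12 libraries, with siPOM121 construct 1 (si 1), construct 2 (si 2) and control (open points) in 22Rv1DR (red) and DU145DR (blue). BRCA1, FANCD2, BLM and CLSPN lie below control with both constructs in 22Rv1DR, RAD54L drops mainly with construct 1 (4.24 and 3.92 FPKM), and XRCC2 is below control in both lines.

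The 2 constructs did not act to the same extent in 22Rv1DR. With construct 1, 25 of 32 genes fell (15.2% of all symbols), with a median of -0.53; with construct 2, 17 fell (20.6% of all symbols), with a median of -0.20, and none rose with either. The comparisons share the control libraries, so the direct contrast was tested. Of the 32, 18 were higher with construct 2 than with construct 1 (7.30% of all symbols) and none lower, with a median difference of 0.28. The 25 and the 18 each include BRCA2 and FANCB, whose construct 1 values were 0s set to the floor. FANCB lost its construct 1 call in 9 alternative settings, and BRCA2 and FANCB each lost their call between constructs in 8. In 26 of the 32 both construct 1 libraries lay below both construct 2 libraries (24.2% of all symbols), and in 19 the order was construct 1, then construct 2, then control without overlap (5.40% of all symbols). POM121 itself differed between the constructs by -0.13 ± 0.06 (construct 2 minus construct 1, adjusted p = 0.153), and E2F1 was at 11.9 and 11.5 FPKM with construct 1 and 17.8 and 15.9 FPKM with construct 2, against 20.7 and 22.3 FPKM in control.

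RAD54L showed the widest gap between the constructs, 1.19 ± 0.11 on the log2 scale (adjusted p = 0.00103). Against control it fell with construct 1 (-1.37 ± 0.11, adjusted p = 6.04e-05) and did not pass with construct 2 (-0.18 ± 0.11, adjusted p = 0.242). EXO1 had 7.05 and 6.84 FPKM with construct 1 and 11.9 and 10.7 FPKM with construct 2, against 13.5 and 12.7 FPKM in control, and the constructs differed by 0.70 ± 0.06 (adjusted p = 0.000863). CHEK1 had 8.91 and 9.27 FPKM with construct 1 and 12.9 and 12.5 FPKM with construct 2, against 15.0 and 13.8 FPKM in control, and differed by 0.48 ± 0.05 (adjusted p = 0.00146). In each of these 3 genes the construct 1 libraries stood well below all others.

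RAD51AP1 had 14.7 and 15.8 FPKM with construct 1 and 26.8 and 20.04 FPKM with construct 2, against 22.9 and 21.1 FPKM in control. It fell with construct 1 (-0.53 ± 0.12, adjusted p = 0.011), while the construct 2 libraries lay on either side of control. FANCB, a core complex gene, was listed at 0 in both construct 1 libraries and at 2.21 and 1.44 FPKM with construct 2, against 1.58 and 1.53 FPKM in control. XRCC3, FANCC, FANCE, FANCG, BRIP1 and TOPBP1 fell with both constructs, and the constructs differed by 0.05 to 0.22 without passing the test. FANCE lost its construct 2 call in 8 alternative settings, FANCC in 4, and XRCC3, BRIP1 and TOPBP1 in 1 each. BARD1, RAD51C, FANCA, MRE11A and CHEK2 fell with construct 1 and did not pass with construct 2. RAD50 stood at 9.82 and 10.4 FPKM with construct 1 and 7.35 and 9.82 FPKM with construct 2, against 11.4 and 10.7 FPKM in control, and passed with construct 2 (-0.38 ± 0.11, adjusted p = 0.0283) but not with construct 1. The direct contrast of the constructs did not pass for RAD50 (-0.25 ± 0.11, adjusted p = 0.179), and the construct 2 call was lost in 6 of 25 settings, among them those without 4A, without 5A and without 4C, with values of -0.59 to -0.13 over the settings.

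The counts between and against constructs depended on single libraries, both for these genes and for all 13622 symbols. Between the constructs, 18 of the 32 genes and 994 of all symbols were higher with construct 2. Without library 4B these counts were 4 and 170, without library 5B 4 and 266, with weights for library quality 3 and 105, and with the line fitted alone 1 and 55. Without library 5C, 19 of the genes were higher and 2 lower, ATM and RAD50, and over all symbols 1995 were higher and 3988 lower, where the fit with all libraries had 994 higher and 583 lower. Against control, 17 of the 32 genes and 2802 of all symbols were lower with construct 2. Without control library 4A these were 9 and 1548, and without library 5C they were 15 and 4809, with 2 of the genes higher.

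**Figure D3:**
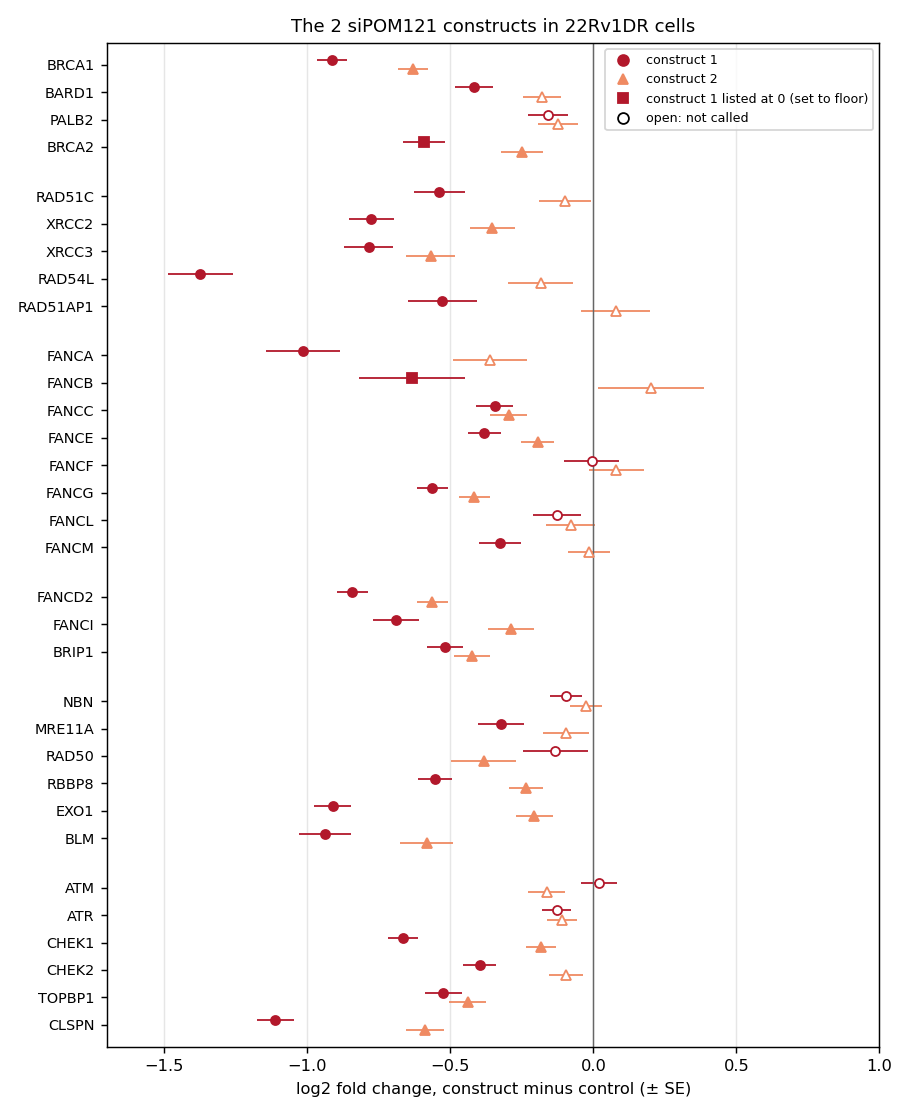
Log2 fold change against control (± SE) with construct 1 (circles) and construct 2 (triangles) in 22Rv1DR, for the 32 tested genes by role. Filled symbols passed the test, 25 with construct 1 and 17 with construct 2. Squares are BRCA2 and FANCB with construct 1, whose values were set to the floor. The distance between constructs is widest for RAD54L (-1.37 and -0.18).

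Because many of the genes fell together and E2F1, a transcription factor of replication and repair genes, fell by 0.62 ± 0.06 in 22Rv1DR (adjusted p = 0.000108), their promoters were searched for E2F words. RefSeq promoters (250 bases before to 50 after a start, GRCh38.p14) were found for 31 of the 33 genes, MRE11A under its current symbol MRE11. The words TTTCCCGC, TTTCGCGC, TTTGCCGC and TTTGGCGC, on either strand, occurred in 7 of the 31, against 3.99% of all 27305 RefSeq symbols in the table. All 7 were among the 21 genes with a promoter that fell in 22Rv1DR, and none of the 9 that were tested and did not pass had one. The share with a word was not taken for all symbols that fell or did not pass. With only 9 genes on the other side, this split is not read as a link. The 7 are printed because each holds at least 1 of these words and all fell, from 180 bases before the start to 30 after it, 5′ to 3′ on the gene's strand with E2F words in capitals.

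XRCC2 (chr7:152676112-152676321, minus strand): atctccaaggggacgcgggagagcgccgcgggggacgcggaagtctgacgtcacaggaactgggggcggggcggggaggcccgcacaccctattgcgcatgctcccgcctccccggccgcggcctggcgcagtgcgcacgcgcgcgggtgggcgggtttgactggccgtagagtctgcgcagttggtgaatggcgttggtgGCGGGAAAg
FANCA (chr16:89816618-89816827, minus strand): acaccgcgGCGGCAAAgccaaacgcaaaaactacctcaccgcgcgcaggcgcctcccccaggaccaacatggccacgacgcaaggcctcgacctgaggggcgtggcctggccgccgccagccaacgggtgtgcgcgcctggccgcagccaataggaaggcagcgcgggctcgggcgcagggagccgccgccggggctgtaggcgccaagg
FANCC (chr9:95317680-95317889, minus strand): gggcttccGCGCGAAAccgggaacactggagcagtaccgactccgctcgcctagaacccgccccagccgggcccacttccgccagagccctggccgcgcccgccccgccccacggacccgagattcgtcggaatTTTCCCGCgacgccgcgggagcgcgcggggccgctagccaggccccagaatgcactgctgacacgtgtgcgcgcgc
FANCD2 (chr3:10026257-10026466, plus strand): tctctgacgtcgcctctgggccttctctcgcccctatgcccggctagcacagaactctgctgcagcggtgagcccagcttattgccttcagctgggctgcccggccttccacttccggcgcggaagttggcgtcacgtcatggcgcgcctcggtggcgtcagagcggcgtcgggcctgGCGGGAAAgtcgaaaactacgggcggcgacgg
EXO1 (chr1:241848024-241848233, plus strand): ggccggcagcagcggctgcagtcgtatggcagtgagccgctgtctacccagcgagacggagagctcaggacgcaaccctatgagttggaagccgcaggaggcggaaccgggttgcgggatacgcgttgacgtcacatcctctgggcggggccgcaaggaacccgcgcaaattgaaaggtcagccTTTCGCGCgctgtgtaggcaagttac
TOPBP1 (chr3:133661912-133662121, minus strand): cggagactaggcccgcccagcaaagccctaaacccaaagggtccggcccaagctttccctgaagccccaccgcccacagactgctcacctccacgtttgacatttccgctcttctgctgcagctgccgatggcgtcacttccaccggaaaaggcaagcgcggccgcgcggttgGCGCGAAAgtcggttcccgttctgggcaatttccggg
CLSPN (chr1:35769949-35770158, minus strand): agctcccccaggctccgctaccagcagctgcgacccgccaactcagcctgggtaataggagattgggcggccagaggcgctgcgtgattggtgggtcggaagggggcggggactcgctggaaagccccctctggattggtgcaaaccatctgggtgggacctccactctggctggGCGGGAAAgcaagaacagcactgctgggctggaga

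In CLSPN, FANCD2 and TOPBP1 the word began 5, 2 and 7 bases before the start, and in EXO1 and XRCC2 it began at base 5 and base 22 after it. CLSPN, FANCD2 and XRCC2 carry the same letters, GCGGGAAA, the reverse complement of TTTCCCGC. FANCA has its word 172 bases before the start and FANCC has one 172 and one 46 bases before. The CCAAT box occurred in 15 of 31 (39.7% of all symbols), the cell cycle homology words TTTGAA and TTCGAA in 3 of 31 (19.5%) and the NRF1 word GCATGCGC in 2 of 31 (3.68%). BRCA1, BLM and RAD54L, which fell as far, held no E2F word in this window. A match is a match of letters only, and the part of E2F1 in these changes was not tested.

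DU145DR gave smaller values. Of the 32 genes, 2 fell with siPOM121 and none rose, where 9.37% of all symbols fell and 14.5% rose, and the median over the 32 was -0.10. In 16 of 32 every siPOM121 library of DU145DR lay below both control libraries (22.0% of all symbols). The first was XRCC2, at 6.82 and 6.69 FPKM with construct 1 and 6.47 and 7.05 FPKM with construct 2, against 9.39 and 9.65 FPKM in control. Its 4 siPOM121 libraries lay together, clear of control, and the fall was 0.50 ± 0.07 (adjusted p = 0.00112). FANCD2 had 10.4 and 10.5 FPKM with construct 1 and 9.62 and 10.5 FPKM with construct 2, against 11.8 and 11.5 FPKM in control, a fall of 0.19 ± 0.05 (adjusted p = 0.0189). Taken by construct, 1 gene fell with construct 1, XRCC2 (7.62% of all symbols), and 2 with construct 2, XRCC2 and FANCD2 (5.62% of all symbols).

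CHEK2 pointed the other way in DU145DR, at 29.8 and 27.8 FPKM with construct 1 and 29.5 and 27.9 FPKM with construct 2, against 24.6 and 27.0 FPKM in control, and did not pass (0.16 ± 0.05, adjusted p = 0.0511). It passed as higher in 7 of 25 settings, among them those without 2A, without 4C and without 5C, with adjusted p from 0.0199 to 0.393 over the settings. RAD54L had 9.62 and 8.53 FPKM with construct 1 and 9.94 and 10.8 FPKM with construct 2, against 8.01 and 9.82 FPKM in control, so its groups overlapped. BRCA1 had 15.6 and 16.4 FPKM with construct 1 and 15.9 and 15.2 FPKM with construct 2, against 17.2 and 17.1 FPKM in control, below control in all 4 libraries without passing (-0.12 ± 0.05, adjusted p = 0.0849). The 2 constructs did not differ for any of the 32 genes in DU145DR at an unadjusted limma p under 0.05, beside 725 of all 13622 symbols. None of the 32 passed after adjustment either, where 0.0220% of all symbols passed. The difference between lines in that contrast was not tested. The count of 2 genes lower with siPOM121, beside 1276 of all symbols, rested on few libraries. It was 1 without 1A and 1 without 1B, beside 427 and 874 of all symbols, and without 2A 1 gene was lower and CHEK2 higher. Without 4C or without 5C, 4 genes were lower and CHEK2 higher, beside 2226 of all symbols lower, and with quantile normalization 2 were lower and 2 higher. FANCD2 lost its call in 5 of 25 settings, among them those without 1A, without 2A and without 1B.

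Tested directly, the siPOM121 effect was lower in 22Rv1DR than in DU145DR for 18 of the 32 genes (15.9% of all symbols) and higher for none. The difference lay below 0 in all 32, with a median of -0.35, beside -0.06 over all symbols. RAD54L led with -0.91 ± 0.14 (adjusted p = 0.00251), followed by CLSPN with -0.73 ± 0.08 (adjusted p = 0.000586), BRCA1 with -0.65 ± 0.06 (adjusted p = 0.000391) and BLM with -0.64 ± 0.11 (adjusted p = 0.00473). FANCG differed by -0.60 ± 0.07 (adjusted p = 0.000622), with 10.9 and 10.9 FPKM with construct 1 and 11.7 and 12.4 FPKM with construct 2 in 22Rv1DR, against 15.8 and 16.3 FPKM in its control. In DU145DR, FANCG stood at 49.0 and 48.3 FPKM with construct 1 and 49.2 and 48.9 FPKM with construct 2, against 47.5 and 43.2 FPKM in control. XRCC2, which fell in both lines, differed between them by -0.07 ± 0.10 (adjusted p = 0.637). POM121 fell by 2.37 ± 0.05 in 22Rv1DR and by 0.71 ± 0.05 in DU145DR. E2F1 fell by 0.62 ± 0.06 in 22Rv1DR, while its log2 value in DU145DR was 0.01 ± 0.06, above 0, and did not pass. The part of POM121 and E2F1 in the line difference was not tested.

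The lines also differed in the controls. Between 22Rv1DR and DU145DR control cells, 26 of the 32 genes were lower in 22Rv1DR (42.7% of all symbols) and 3 were higher (40.3% of all symbols), with a median difference of -0.55. Within lanes 1 and 2, that is without control library 5A, only 4A is left of the 22Rv1DR controls, so calls are not counted there. The first 22Rv1DR value given for each gene below is that of 4A. MRE11A was lowest relative to DU145DR, at 2.07 and 1.89 FPKM in 22Rv1DR against 7.05 and 6.66 FPKM in DU145DR (-1.79 ± 0.08, adjusted p = 1.66e-08). ATR followed with 4.49 and 4.27 FPKM against 13.4 and 13.9 FPKM (-1.64 ± 0.05), NBN with 13.3 and 12.3 FPKM against 37.8 and 39.9 FPKM (-1.60 ± 0.05) and BRCA2 with 1.54 and 1.48 FPKM against 4.33 and 4.68 FPKM (-1.58 ± 0.07). The groups were apart in all 4 of these genes, which follows from picking the largest differences and is not read further.

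FANCF went the other way, with 16.9 and 15.3 FPKM in 22Rv1DR control cells against 3.34 and 2.75 FPKM in DU145DR control cells (2.41 ± 0.10, adjusted p = 6.62e-09). RAD51AP1 was higher by 1.20 ± 0.12 (22.9 and 21.1 FPKM against 9.50 and 9.59 FPKM) and RAD51C by 0.26 ± 0.09 (34.9 and 36.7 FPKM against 29.2 and 30.6 FPKM). RAD51C lost this call in 3 alternative settings, among them the higher-numbered lanes alone. FANCD2, RAD50 and RAD54L did not pass, at 0.08 ± 0.05, 0.12 ± 0.11 and 0.25 ± 0.11.

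**Figure D4:**
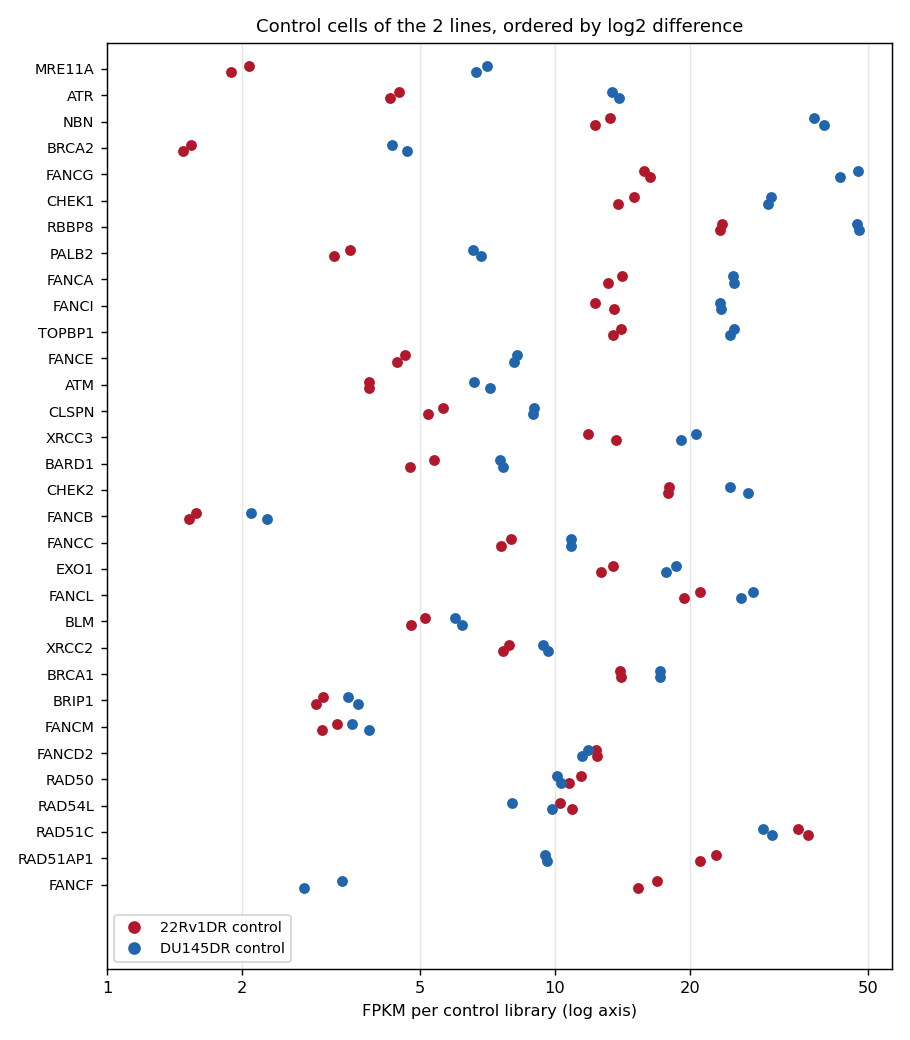
FPKM of the 32 tested genes in the control libraries of 22Rv1DR (red) and DU145DR (blue) on a log axis, ordered from lowest to highest log2 difference. MRE11A, ATR, NBN and BRCA2 are at the top, lower in 22Rv1DR, and FANCF at the bottom, with 16.9 and 15.3 FPKM against 3.34 and 2.75 FPKM.

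Other DNA repair and replication lists gave the setting, beside 20.4% of all symbols lower and 15.2% higher in 22Rv1DR. In 22Rv1DR with siPOM121, 27 of 46 other recombination and Fanconi genes fell and 2 rose, among them GEN1, a junction resolvase (-0.59 ± 0.07), RECQL4, a helicase (-0.55 ± 0.05), FIGNL1 (-0.46 ± 0.04) and RPA1, a subunit of the single-strand binding protein (-0.37 ± 0.04). Of 23 other checkpoint genes 13 fell and none rose, with MDC1, a scaffold at breaks (-0.80 ± 0.06), and TIMELESS, of the fork protection complex (-0.61 ± 0.04). End joining, the competing way to mend breaks, had 10 of 18 genes lower and none higher, PRKDC at -0.40 ± 0.05 and PARP1 at -0.43 ± 0.06 among them. Mismatch repair had 3 of 7 lower, and base and nucleotide excision repair 14 of 33 lower and 2 higher.

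Replication fork genes fell in 27 of 28 cases with a median of -0.60, beside -0.36 for the genes above, and E2F and cell cycle regulators in 10 of 16 with 1 higher and a median of -0.47. MCM3 and MCM5, subunits of the replicative helicase, were at -0.87 ± 0.04 and -0.84 ± 0.04. RFC4, a subunit of the clamp loader, was listed at 0 in both construct 1 libraries of 22Rv1DR and at 41.4 and 35.9 FPKM with construct 2, against 41.9 and 44.4 FPKM in control. Among these lists, 0 to 5 genes each were lower and 0 to 3 each higher in DU145DR, replication fork genes with 5 of 28 lower. Of all symbols, 9.37% were lower and 14.5% higher in DU145DR.

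**Figure D5:**
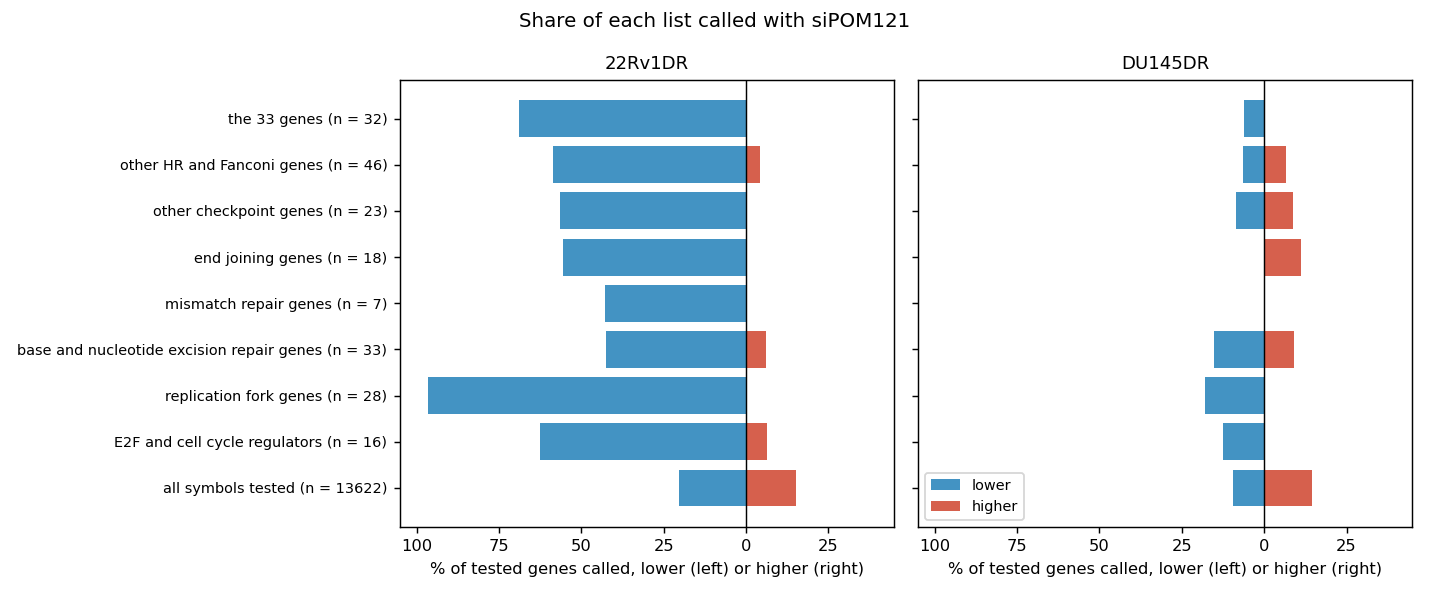
Share of the tested genes of each list that were lower (left of 0) or higher (right of 0) with siPOM121 in 22Rv1DR and DU145DR, with all 13622 tested symbols in the bottom bar. In 22Rv1DR the 33 genes have 22 of 32 lower and the replication fork genes 27 of 28, against 20.4% of all symbols.

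Several of the genes share transcribed bases with a neighbour on the opposite strand. Whether the libraries kept the strand of a read is not established here, and without it reads from these bases cannot be separated. In GENCODE v29 the shared part was 45.4% of exon bases for XRCC3 (with KLC1), 26.6% for FANCL (with VRK2), 22.4% for FANCA (with ZNF276), 18.0% for RAD54L (with LRRC41) and 10.3% for EME1 (with LRRC59). The neighbours' own values with siPOM121 in 22Rv1DR were -0.13 ± 0.04 for KLC1, -0.12 ± 0.09 for VRK2, -0.78 ± 0.71 for ZNF276 and 0.02 ± 0.09 for LRRC41, and the part of shared reads in the changes of XRCC3, FANCA and RAD54L was not tested. RAD50 shares 90.6% of its exon bases with an annotated transcript on its own strand, so its values are uncertain. FANCD2, BRCA1 and CHEK2 have pseudogene copies, and how reads shared with these were counted is not given in the sources used here.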

How the data were processed

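Poly(A) RNA of 12 libraries was sequenced on 2 lanes each, giving 24 deposited columns. The authors deposited log2 FPKM per gene symbol, with no value between 0 and 1 FPKM; TopHat, Cufflinks, hg19 and mm10 are named in the submitters' processing notes, without versions or roles. That the scale is base 2 was checked on the values: 100% of values above 0 gave an FPKM of 6 significant digits at most, within 0.02 of a whole sixth digit. Of all values 52.8% were 0. Read depth is unknown, so no counting interval is given.

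The lanes of a library were averaged on the log2 scale, and a repeated symbol kept its line with the highest mean. Symbols above the floor on both lanes in at least 2 of 12 libraries were kept (13622), and limma 3.58.1 in R 4.3.3 (trend and robust options, no pseudocount) fitted 1 mean per group over all 12 libraries, with 6 residual degrees of freedom, two-sided tests and Benjamini-Hochberg adjustment over all symbols (threshold 0.05). A listed 0 was entered as log2 0, that is as 1 FPKM, whether it stands for a low level or a failed estimate, so fold changes of genes listed at 0 are not read. The scripts were tested on simulated data. The genes named are all 33 members, POM121, POM121C and E2F1, up to 4 genes of each other list with the smallest p per line, and markers. The members and lists were chosen with earlier results of these data known. Whether the library numbers pair the libraries is not known, and the main fit used no pairing. Deviations of same-numbered libraries from their group means correlated at -0.08 to 0.23, which with 2 libraries per group cannot exclude a pairing. Alternatives covered pseudocounts, filters, scaling, a replicate block, each line alone, array weights, single lanes and each library left out.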

Additional observations from a re-analysis of the deposited data

Results flagged for a closer look

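In 18 of the 32 tested genes the siPOM121 effect was lower in 22Rv1DR than in DU145DR by the test of the difference (limma, adjusted p under 0.05). Of all symbols, 15.9% were lower in that test. The log2 differences, 22Rv1DR minus DU145DR, were -0.91 for RAD54L, -0.73 for CLSPN, -0.65 for BRCA1, -0.64 for BLM, -0.60 for FANCG, -0.57 for FANCA, -0.52 for FANCD2, -0.49 for XRCC3 and -0.41 for BRIP1. They were -0.40 for EXO1, -0.40 for CHEK2, -0.39 for BRCA2, -0.38 for RBBP8, -0.38 for FANCC, -0.37 for TOPBP1, -0.36 for FANCI, -0.33 for CHEK1 and -0.29 for FANCE. The value for BRCA2 rests on a 0 entered as 1 FPKM, since BRCA2 was listed at 0 with construct 1 in 22Rv1DR. FANCA lost this call in 11 alternative settings, FANCI in 10, BRCA2 in 4, FANCE in 3, XRCC3 in 2, and FANCC and TOPBP1 in 1 each.

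Among 191 sets of 4 lane values (2 libraries of 2 lanes, a gene and a group each), 8 had 1 lane far from the other 3. Chance gives about 1 set in 20 for 4 independent values. The 2 lanes of a library are not independent, so the count of 8 is not weighed against that rate. EME1 read 3.16 log2 FPKM on lane 1 of 22Rv1DR control library 4A and was listed at 0 on its other lane and in the other control library. RAD54L read 3.55 log2 FPKM on lane 3 of construct 2 library 4C in 22Rv1DR (the others 3.09 to 3.12) and 3.19 on lane 1 of construct 2 library 1C in DU145DR (3.43 to 3.44). FANCE read 1.93 on lane 3 of construct 1 library 5B in 22Rv1DR (1.74 to 1.77), and PALB2 read 1.52 on lane 3 of construct 2 library 5C (1.65 to 1.67). In DU145DR, RAD51C read 4.52 on lane 2 of construct 2 library 2C (4.82 to 4.87), FANCF 2.01 on lane 2 of construct 2 library 1C (1.71 to 1.73) and MRE11A 2.89 on lane 1 of control library 1A (2.72 to 2.75).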

How the results depend on the processing

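Under 25 alternative settings no called gene changed direction. Of all 7916 values, called and uncalled together, 149 changed sign, and these were called neither in the main fit nor in the alternative. The count of called genes, in either direction, stayed within 1.5 times its value for siPOM121 in 22Rv1DR (16 to 26, against 22), construct 1 in 22Rv1DR (17 to 26, against 25), the line difference (13 to 20, against 18) and the control cells (25 to 30, against 29). For siPOM121 in DU145DR (2) it was 4 with quantile normalization or median centring, 8 with array weights, 9 without 4A and 4C together, a setting chosen after seeing the data, and 1 to 5 with single libraries left out. For construct 1 in DU145DR (1) it was 2 with median centring or the higher-numbered lanes, 3 with the line alone, 6 with array weights, 6 without 4A and 4C, and 1 to 5 with single libraries left out. For construct 2 in DU145DR (2) it was 5 with array weights, 1 on the lower-numbered lanes, 5 without 4A and 4C, and 1 to 3 with single libraries left out. For construct 2 in 22Rv1DR (17) it was 6 with the line alone, 6 with array weights and 9 to 17 with single libraries left out. For construct 2 minus construct 1 in 22Rv1DR (18) it was 1 with the line alone, 3 with array weights, 11 on the lower-numbered lanes, 10 on the higher-numbered lanes and 4 to 21 with single libraries left out. Over all 13622 symbols the calls also moved with the setting. For siPOM121 in 22Rv1DR they were 2774 lower and 2068 higher. With the line alone they were 1082 and 983, and with array weights 2637 and 1750. The same pairs in DU145DR were 1276 and 1977, 1405 and 1848, and 2212 and 2948. For construct 2 in 22Rv1DR they were 2802 and 1981, 664 and 852, and 918 and 614. The causes were not tested. With a replicate block by library number, a pairing not known to hold, the counts were 21 for siPOM121 in 22Rv1DR and 2 in DU145DR. By construct they were 25 and 17 in 22Rv1DR and 1 and 2 in DU145DR. Between constructs they were 17 in 22Rv1DR and 0 in DU145DR. The line difference had 17 and the control cells 26. Over all symbols the replicate block gave, for siPOM121, 2784 lower and 2006 higher in 22Rv1DR and 1225 and 1938 in DU145DR. With 2 libraries a group, 1 library can move a call, and MRE11A lost its call in 22Rv1DR in 21 of 25 settings, and values listed at 0 limit what can be said of BRCA2, FANCB and EME1.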
